A study of Mus musculus with 24 samples.

Results

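The 6 miRNAs described here are known from white blood cells: mmu-miR-150-5p, mmu-miR-342-3p, mmu-miR-223-3p, mmu-miR-142a-3p, mmu-miR-142a-5p and mmu-miR-146a-5p. They were chosen by name, as 6 of the 1881 miRNAs on the array, and all 6 were found. The RNA came from serum exosomes (small vesicles that cells release into blood) of male BALB/c mice, and was measured on 24 one-colour mouse miRNA arrays, 4 in each of 6 groups. The groups were TSN (toosendanin, a natural triterpenoid known to be toxic to liver, 80 mg/kg) and control (vehicle), each dosed for 3, 9 or 21 days, and serum was taken a day after the last dose. No genotype other than the strain and no age is given in the labels used here. The labels do not say whether an array holds 1 animal or a pool, so the p-values measure only the spread between these 4 samples a group.

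miRNAs are short RNAs that lower the output of messenger RNAs whose sequence pairs with the seed, bases 2 to 8 of the miRNA. miR-150 is known from mature B, T and natural killer cells, where it targets the transcription factor Myb, and miR-342 is likewise high in lymphocytes, so these 2 are called lymphoid here. miR-223, which restrains neutrophil production and activation, is the myeloid member. miR-142, whose hairpin gives 2 abundant arms, is found in nearly all blood cell lineages, and miR-146a is induced by NF-κB signalling and damps that pathway by targeting Traf6 and Irak1. Serum exosomes carry RNA of many cell types, so fewer source cells, fewer vesicles from each cell and less miRNA in each vesicle cannot be told apart here.

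The mature sequences of 5 of the 6 members are shown to set the 2 arms of the miR-142a hairpin beside each other and to show which members share a seed. The sequences are from RefSeq (GRCm38.p6), written 5′ to 3′ with the seed in capitals.
miR-142a-5p: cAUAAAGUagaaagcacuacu
miR-142a-3p: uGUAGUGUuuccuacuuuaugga
miR-342-3p: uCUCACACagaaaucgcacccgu
miR-223-3p: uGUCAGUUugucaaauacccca
miR-146a-5p: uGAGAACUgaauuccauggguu
miR-146b-5p: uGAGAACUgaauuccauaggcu

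The 5 members shown had 5 different seeds, so none of them shared a seed with another. The miR-142a arms lie at chr11:87756867-87756887 (5p) and chr11:87756903-87756925 (3p) on the plus strand, in 1 hairpin. miR-342-3p lies at chr12:108658680-108658702 and miR-223-3p at chrX:96242884-96242905, both on the plus strand. miR-146a-5p lies at chr11:43374435-43374456 on the minus strand. The RefSeq set used held no mature sequence of miR-150-5p, and array miRNAs without a sequence in it were not searched for these seeds. Among those with one, only miR-146b-5p (chr19:46342790-46342811, plus strand) also carried the seed of a member shown here. It differs from miR-146a-5p by G18A and U21C, counted from the 5′ end with the base of miR-146a-5p first. miR-146b-5p was well above background on no array.

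Values are log2 signals relative to each array's 75th percentile, where 0 means a signal equal to that percentile, and they compare 1 miRNA between groups, not miRNAs with each other. A change is the TSN mean minus the control mean. It was called where limma's adjusted p over the 444 miRNAs tested was under 0.05, and rose and fell are used of called changes only. The TSN arrays were brighter: the unscaled 75th percentile lay between 737 and 1748 on them and between 73.5 and 609 on control arrays, and 379 to 471 miRNAs were well above background on TSN arrays against 184 to 351 on control arrays. With no scaling, all 6 members were higher in the TSN groups on every day, so a fall below means less than the general brightening of the arrays. Members' changes under other ways of processing are given below relative to the median miRNA wherever a setting moved that median by over 0.1. No slide held both arms (TSN day 3 lay on slide 3, TSN days 9 and 21 shared slide 4, control days 3 and 9 shared slide 1 and control day 21 lay on slide 2). The arms were also scanned on separate days: all TSN arrays on 1 day, control days 3 and 9 on another, and control day 21 on a day of its own. An effect of TSN and an effect of the slide or the scan day therefore cannot be told apart.

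All 6 members were well above background on all 12 TSN arrays. On the 12 control arrays the 2 brighter members, miR-142a-3p and miR-223-3p, were well above background every time, and the others were not. miR-142a-5p missed 1 control array of day 3 and miR-146a-5p missed 1 of day 21. miR-342-3p was well above background on 3, 2 and 3 of 4 control arrays of days 3, 9 and 21, and miR-150-5p on 2, 1 and 3 of 4. The variation between the spots of 1 probe followed this. For miR-150-5p its coefficient had a median of 8.94% on TSN arrays and 27.4% on control arrays, and for miR-223-3p 3.79% on TSN arrays and 5.68% on control arrays.

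**Figure D1:**
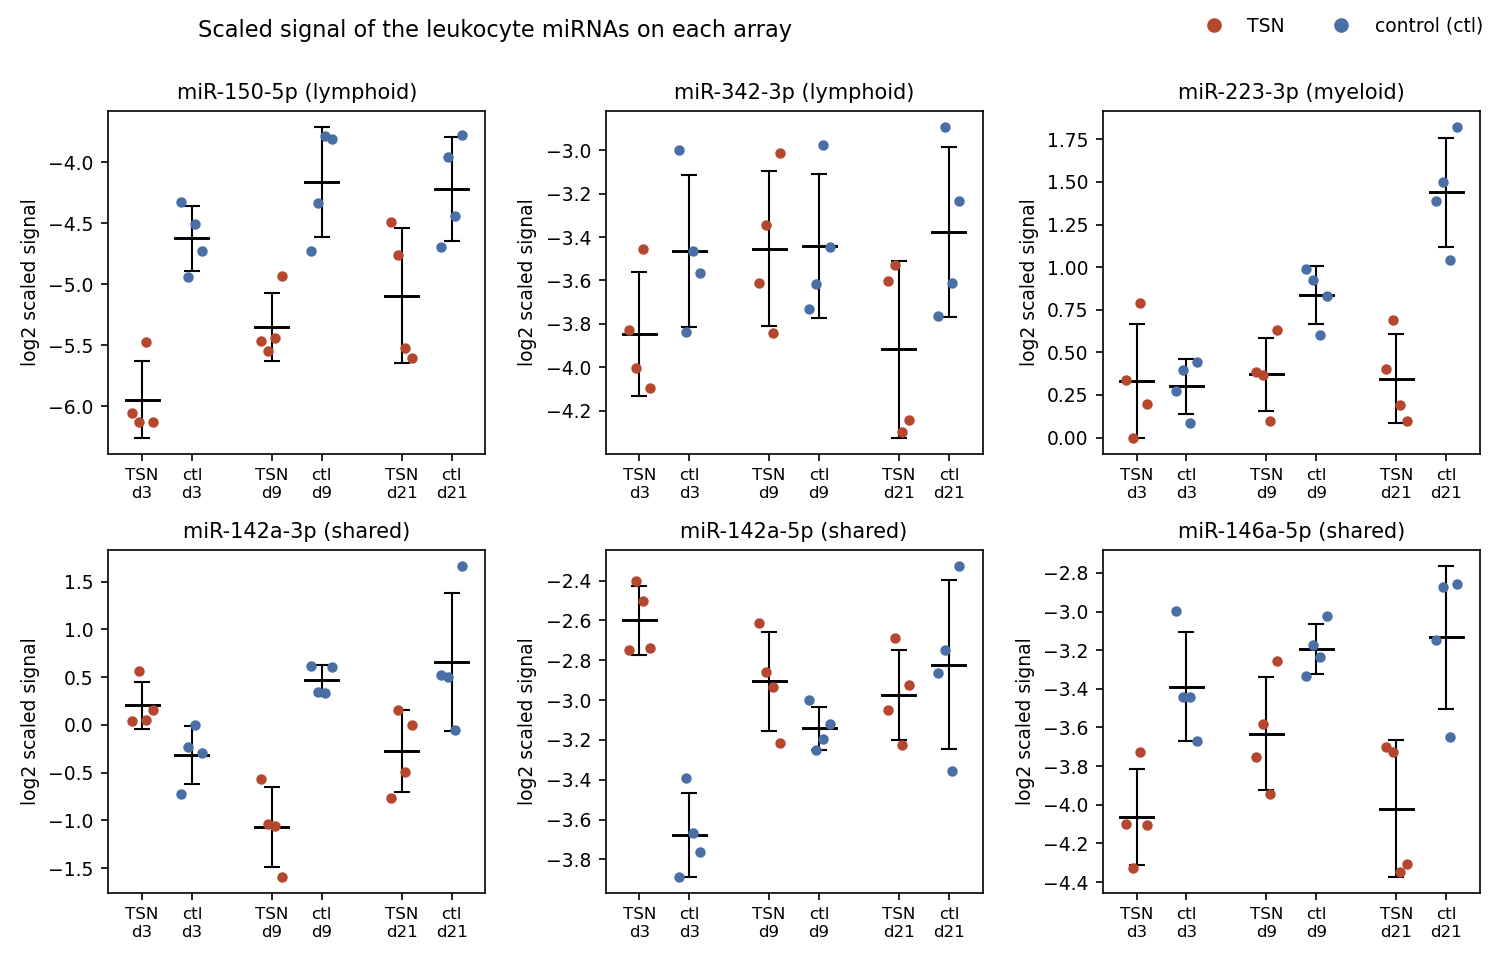
Log2 scaled signal of each of the 6 leukocyte miRNAs (vertical axis, in log2 units) on each array of the TSN and control (ctl) groups of days 3, 9 and 21. Points are arrays, the long line is the group mean and the bar its SD (n = 4). miR-150-5p lay lower in all 4 TSN arrays than in all 4 control arrays on days 3 and 9 (quantile normalization gave a change of 0.03 at day 9), and miR-223-3p did so on day 21 (normexp background correction gave 0.50). The changes in brackets are relative to the median miRNA. Without that centring, normexp called all 6 members lower at day 21.

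At day 3, 1 of the 6 members rose and 2 fell against control, where 29.1% of all 444 tested miRNAs were called higher and 18.2% lower. At day 9 none rose and 3 fell, with 27.9% of all tested called higher and 34.2% lower. At day 21 none rose and 4 fell, with 23.2% called higher and 21.6% lower. The median change of the members was -0.17, -0.45 and -0.88 on the 3 days, and that of all tested miRNAs was 0.10, -0.04 and 0.01. The members did not move as 1 block: miR-150-5p fell on every day, miR-223-3p and miR-142a-3p on days 9 and 21, miR-146a-5p on days 3 and 21, miR-342-3p on no day, and miR-142a-5p rose on day 3 (and also on day 9 in 4 of 12 other ways of processing).

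**Figure D2:**
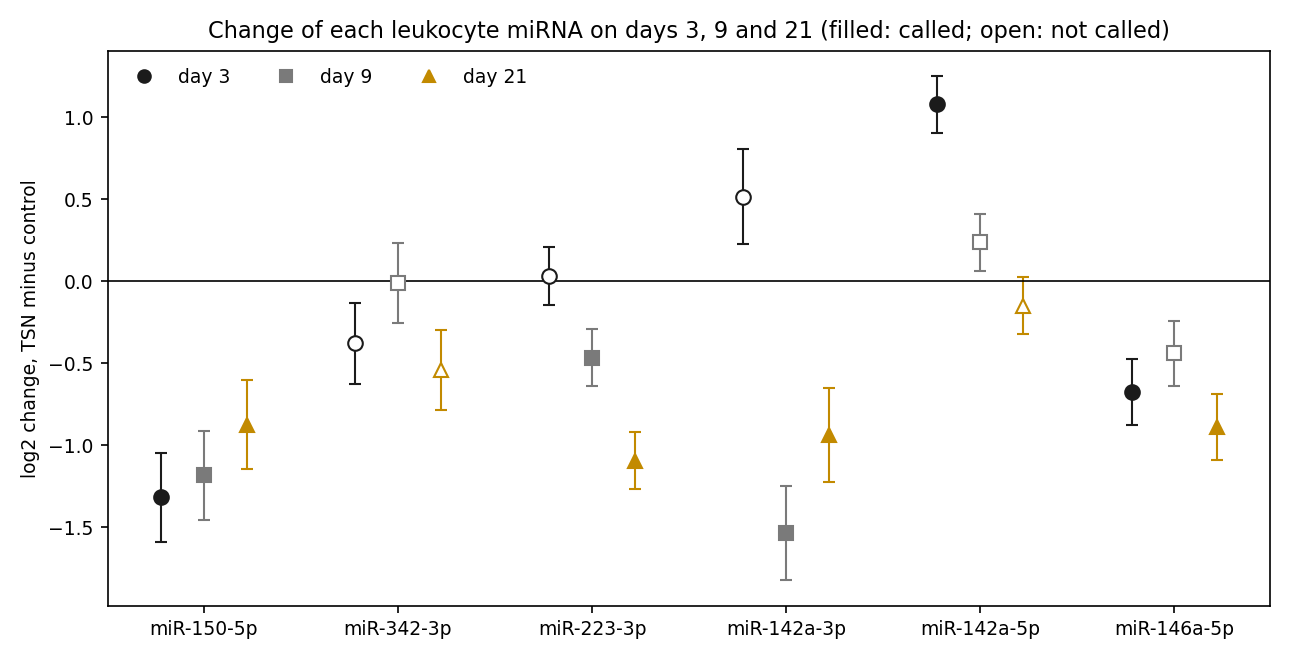
Log2 change of each member, TSN minus control (vertical axis), on days 3 (circles), 9 (squares) and 21 (triangles), with bars of 1 SE from the limma fit. Filled symbols are called changes (adjusted p under 0.05). miR-150-5p lies below 0 on all 3 days, though its change at day 9 was 0.03 after quantile normalization, and the miR-223-3p change at day 9 was above 0 under 4 other scalings or background corrections. These changes under other processing are relative to the median miRNA.

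The lymphoid member miR-150-5p had a lower scaled signal in TSN serum exosomes on each day. At day 3 it had -6.05, -6.13, -5.47 and -6.12 in TSN samples, against -4.32, -4.94, -4.51 and -4.73 in control samples. All 4 TSN values lay below all 4 control values, and 3 of them lay close to -6.21, the floor set on scaled signals. That floor is not the background of an array: miR-150-5p was well above background on all 4 TSN arrays and on 2 of 4 control arrays. At day 9 it had -5.46, -5.55, -5.44 and -4.94 in TSN samples, against -4.73, -4.33, -3.78 and -3.81 in control samples. The groups again did not overlap, and the fourth TSN sample came nearest to the controls. At day 21 it had -4.49, -4.76, -5.52 and -5.60 in TSN samples, against -4.70, -3.96, -4.44 and -3.78 in control samples, and here the first 2 TSN samples lay within or next to the control range.

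The change of miR-150-5p was -1.32 at day 3 (limma adjusted p = 0.00043), -1.18 at day 9 (adjusted p = 0.000895) and -0.88 at day 21 (adjusted p = 0.0137), each with an SE of 0.27. No difference of its effect between days passed: day 9 minus day 3 gave 0.13 (adjusted p = 0.854), day 21 minus day 9 gave 0.31 (adjusted p = 0.552) and day 21 minus day 3 gave 0.44 (adjusted p = 0.511). Before scaling, its signal was 23.2, 10.5, 25.2 and 18.5 in TSN samples of day 3, against 5.92, 3.44, 9.70 and 8.19 in control samples, which is 2.90-fold higher in TSN where the 75th percentile of the arrays was 7.23-fold higher. The corresponding folds were 5.20 against 11.8 at day 9 and 3.20 against 5.87 at day 21. Within the control groups its log2 unscaled signal changed by 1.1 for each unit of log2 array brightness (slope over 12 arrays), and by 1.01 within the TSN groups.

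The values of miR-150-5p rest on 1 of its 2 probes. The other probe was well above background on 0, 1 and 2 of 4 TSN arrays of days 3, 9 and 21 and on none of the control arrays, and its scaled signal lay at the floor on all 12 TSN arrays. The call at day 3 held in 9 of 11 other ways of processing, with changes from -3.58 (total gene signal) to -0.28 (quantile normalization). The call at day 9 held in 4 of 11, and quantile normalization gave a change of 0.03. The call at day 21 held in 3 of 11, with changes from -1.35 (total gene signal) to -0.34 (the authors' values). The day 21 call was also lost without control replicate 4 (-0.73, adjusted p = 0.0547), without TSN replicate 3 (-0.73, adjusted p = 0.0522) and without TSN replicate 4 (-0.71, adjusted p = 0.0587).

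The other lymphoid member, miR-342-3p, passed the test on no day. Its values ran from -4.10 to -3.45 in TSN samples and from -3.84 to -3.0 in control samples at day 3. At day 9 they ran from -3.84 to -3.01 in TSN samples and from -3.73 to -2.98 in control samples, which is nearly the same range. At day 21 they ran from -4.30 to -3.53 in TSN samples and from -3.76 to -2.89 in control samples. The change was -0.38 at day 3 (adjusted p = 0.229), -0.01 at day 9 (adjusted p = 1) and -0.54 at day 21 (adjusted p = 0.0814), each with an SE of 0.25. The day 21 change passed the test without control replicate 1 (-0.67, adjusted p = 0.0491), without TSN replicate 2 (-0.67, adjusted p = 0.0443) and with the software's total gene signal (-1.20, adjusted p = 0.011).

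The myeloid member miR-223-3p was level between the arms at day 3 and lower in TSN samples later, while its control values climbed with the day. At day 3 it had 0.34, 0.00, 0.79 and 0.20 in TSN samples, against 0.27, 0.40, 0.09 and 0.44 in control samples. The control samples lay inside the TSN range. Relative to the median miRNA, other ways of processing called this day 3 change in both directions, at -0.43 with quantile normalization and 1.66 with normexp. Without that centring, quantile normalization called no member lower at day 3 and normexp called none higher. At day 9 it had 0.38, 0.37, 0.10 and 0.63 in TSN samples, against 0.99, 0.92, 0.60 and 0.83 in control samples, and the highest TSN sample overlapped the lowest control sample. At day 21 it had 0.40, 0.69, 0.19 and 0.10 in TSN samples, against 1.39, 1.5, 1.04 and 1.82 in control samples. Here every TSN sample lay below every control sample.

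The change of miR-223-3p was 0.03 at day 3 (adjusted p = 0.955), -0.47 at day 9 (adjusted p = 0.027) and -1.09 at day 21 (adjusted p = 4.71e-05, 2.14-fold lower), each with an SE of 0.18. The effect at day 21 was lower than that at day 3 by a difference of -1.13 (SE 0.25, adjusted p = 0.00905), a call that held in 7 of 12 other ways of processing. The group means of the TSN arm hardly moved, at 0.33, 0.37 and 0.34 on days 3, 9 and 21, and no day difference within that arm passed (day 9 against day 3: 0.04, adjusted p = 0.933; day 21 against day 9: -0.03, adjusted p = 0.994; day 21 against day 3: 0.01, adjusted p = 1). The control means were 0.30, 0.84 and 1.44, with day 21 higher than day 3 by 1.14 (adjusted p = 0.000316) and day 9 higher than day 3 by 0.54 (adjusted p = 0.0474). The day 21 control arrays had a slide and a scan day of their own, and the day 9 against day 3 control comparison lay within 1 slide. That within-slide call was lost when any 1 of 7 of the 8 arrays was left out (all but control day 9 replicate 3, with values from 0.47 to 0.58) and in 10 of 12 other ways of processing.

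The day 9 call of miR-223-3p held in 6 of 12 other ways of processing. Relative to the median miRNA it turned to 0.16 with scaling over all probes, 0.68 with no scaling, 0.34 with spike-in scaling and 1.82 with normexp background correction. It also missed the threshold without control replicate 1 (-0.42), control replicate 2 (-0.44) or TSN replicate 3 (-0.38). The day 21 call held in 9 of 12 other ways of processing and in all 8 fits that left out 1 array. Relative to the median miRNA the change turned to 0.50 with normexp, which without that centring called all 6 members lower at day 21. Unscaled, miR-223-3p was 7.38-fold, 8.55-fold and 2.75-fold higher in TSN samples on days 3, 9 and 21, where the 75th percentile of the arrays was 7.23-fold, 11.8-fold and 5.87-fold higher.

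**Figure D3:**
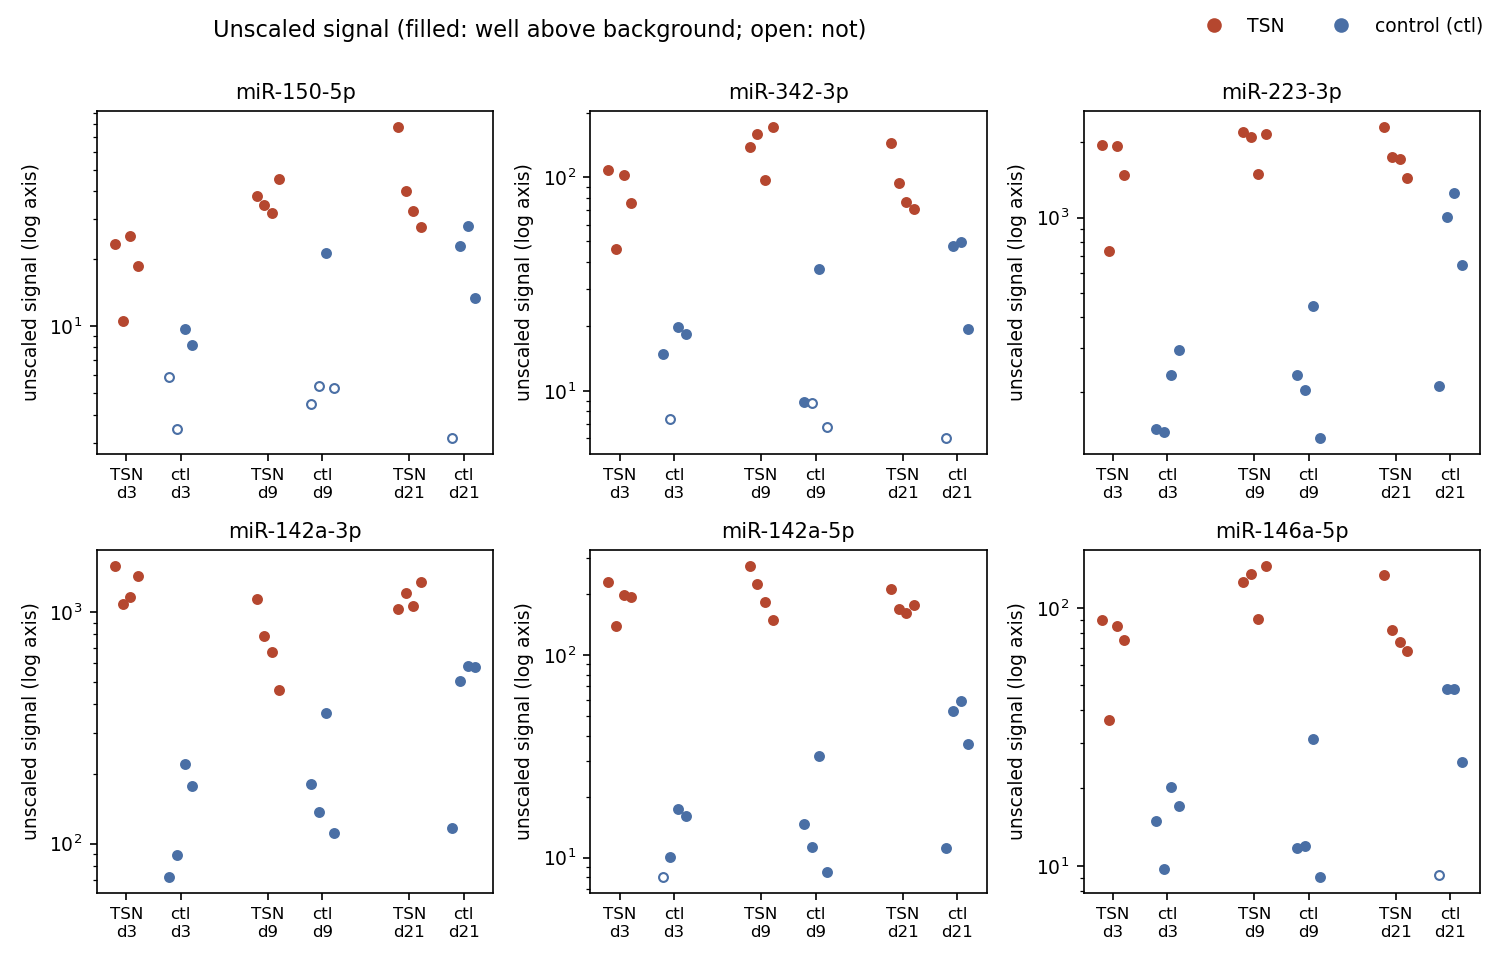
Unscaled signal of each member (vertical axis, log scale, in scanner units) on each array of the TSN and control (ctl) groups of days 3, 9 and 21. Filled points were well above background and open points were not. The 4 TSN samples of a day average above the 4 control samples for each member, from 2.75-fold (miR-223-3p, day 21) to 15.3-fold (miR-142a-5p, day 3), and the open points are all control samples.

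The 2 arms of the miR-142a hairpin were called on different days. At day 3 miR-142a-3p had 0.04, 0.56, 0.05 and 0.15 in TSN samples, against -0.73, -0.23, 0.00 and -0.30 in control samples. The groups did not overlap, but the change of 0.52 did not pass (SE 0.29, adjusted p = 0.163, limma). Relative to the median miRNA it passed in 3 of 12 other ways of processing, at 1.18 with no scaling (adjusted p = 0.040), 0.87 with spike-in scaling (adjusted p = 0.041) and 2.0 with normexp (adjusted p = 4.2e-07). At day 9 miR-142a-3p had -0.57, -1.04, -1.06 and -1.60 in TSN samples, against 0.61, 0.34, 0.33 and 0.60 in control samples. Every TSN sample lay below every control sample and miR-142a-3p fell by 1.54 on the log2 scale (SE 0.29, adjusted p = 0.000131), which is 2.90-fold lower. At day 21 miR-142a-3p had -0.77, 0.15, -0.49 and 0.00 in TSN samples, against 0.52, 0.50, -0.05 and 1.67 in control samples. Only the third control sample lay within the TSN range, and the change was -0.94 (SE 0.29, adjusted p = 0.0129).

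miR-142a-5p rose on day 3. At day 3 it had -2.75, -2.40, -2.50 and -2.74 in TSN samples, against -3.89, -3.39, -3.67 and -3.76 in control samples. The groups were clearly apart, and the change was 1.08 (SE 0.17, adjusted p = 3.42e-05, 2.11-fold higher). At day 9 it had -2.61, -2.86, -2.93 and -3.22 in TSN samples, against -3.0, -3.25, -3.20 and -3.12 in control samples. The change was 0.24 (SE 0.17, adjusted p = 0.251), and the fourth TSN sample lay within the control range. Relative to the median miRNA, this day 9 change did pass in 4 of 12 other ways of processing, at 0.87 with scaling over all probes, 1.34 with no scaling, 1.05 with spike-in scaling and 0.87 with normexp (adjusted p from 0.0057 to 0.011). On day 21 the values of miR-142a-5p were -3.05, -2.69, -3.23 and -2.92 in TSN samples, against -2.86, -2.75, -3.35 and -2.33 in control samples, with a change of -0.15 (SE 0.17, adjusted p = 0.548) and the TSN samples among the controls.

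Both arms had a lower TSN effect on the later days than on day 3. For miR-142a-3p the difference was -2.05 at day 9 (adjusted p = 0.00143) and -1.45 at day 21 (adjusted p = 0.0246), with an SE of 0.41 each. For miR-142a-5p it was -0.84 at day 9 (adjusted p = 0.0203) and -1.23 at day 21 (adjusted p = 0.00905), with an SE of 0.25 each. Both probes of each arm gave similar changes. At day 9 the second probe of miR-142a-3p gave -1.55, and at day 3 the second probe of miR-142a-5p gave 1.1. Within the TSN groups the log2 unscaled signal of miR-142a-3p changed by 0.46 for each unit of log2 array brightness, against 0.85 within the control groups, while the slopes of miR-142a-5p were 0.70 within the TSN groups and 0.87 within the control groups.

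The miR-142a-3p call held in 9 of 12 other ways of processing at day 9 and in 7 of 12 at day 21. Relative to the median miRNA, normexp turned these changes to 0.74 and 0.59. Without that centring, normexp called 5 members lower at day 9, all 6 lower at day 21 and none higher. The day 21 call was lost without control replicate 4 (-0.60, adjusted p = 0.0579) and without TSN replicate 1 (-0.77, adjusted p = 0.0508). The miR-142a-5p rise at day 3 held in 11 of 12, and quantile normalization gave 0.93 (adjusted p = 0.116). Of the differences between days, that of miR-142a-3p between days 9 and 3 held in 10 of 12 and in all 16 fits that left out 1 array. That of miR-142a-3p between days 21 and 3 held in 7 of 12 and was lost without control day 3 replicate 1 (-1.32), TSN day 21 replicate 1 (-1.29) or TSN day 21 replicate 3 (-1.38). That of miR-142a-5p held in 4 of 12 for days 9 and 3, where it was also lost without TSN day 9 replicate 4 (-0.74), and in 6 of 12 for days 21 and 3.

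A factor that scales a whole array cancels in the difference between the arms on that array, but a floor does not. With no scaling, a floor of 9.63 scanner units raised the miR-142a-5p signal of 1 control sample each of days 3 and 9. At day 3 miR-142a-3p minus miR-142a-5p was 2.79, 2.96, 2.56 and 2.89 in TSN samples, against 3.16, 3.15, 3.67 and 3.46 in control samples. At day 9 it was 2.04, 1.82, 1.88 and 1.62 in TSN samples, against 3.62, 3.59, 3.53 and 3.72 in control samples. At day 21 it was 2.29, 2.84, 2.73 and 2.92 in TSN samples, against 3.39, 3.25, 3.30 and 3.99 in control samples. The TSN samples lay below the control samples on each day, with no overlap, and the TSN and control samples lay farthest apart at day 9.

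The differences between the arms changed by -0.56 at day 3, -1.77 at day 9 and -0.79 at day 21, TSN minus control. Each gave an exact two-sided permutation p of 0.0286, the smallest that 4 against 4 samples can give, and 0.0571 after adjustment over the 12 tests of 4 pairs and 3 days, so none of them passed after adjustment. The day 9 difference kept its sign in all 9 other ways of processing, down to -0.13 with normexp, while those of day 3 and day 21 turned to 1.03 and 0.19 with normexp. The normexp offset of 50 is larger than the unscaled miR-142a-5p signals of 8.0 to 31.8 in the control samples of days 3 and 9. In the control samples of day 21 these signals were 11.2, 52.9, 59.6 and 36.4, on both sides of the offset. The part of the offset in these turns was not tested. The arms followed each other within groups, with r = 0.87 for deviations from group means over 24 arrays. They did so less over the scaled log2 values themselves (r = 0.39). These arrays share their brightness and slides.

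**Figure D4:**
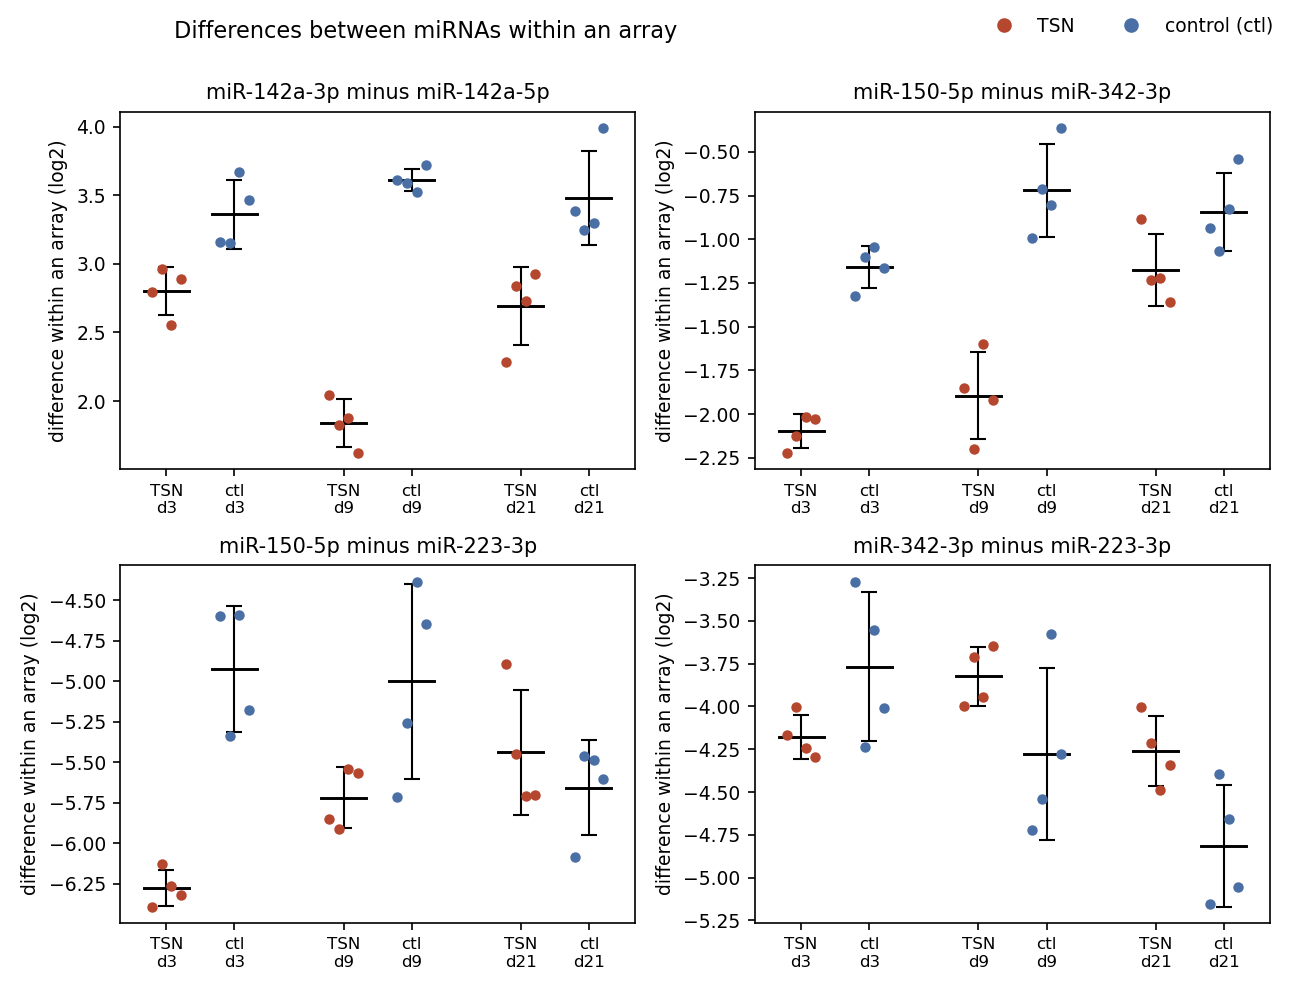
Difference between the log2 signals of 2 miRNAs on the same array (vertical axis) in the TSN and control (ctl) groups of days 3, 9 and 21, with the mean and SD of 4 arrays. miR-142a-3p minus miR-142a-5p lies lower in every TSN sample than in every control sample of the same day, and miR-150-5p minus miR-342-3p does so on days 3 and 9. Under normexp background correction the first of these turned upward at days 3 and 21, and at day 3 the second changed by 0.03 under quantile normalization and by 0.11 in the authors' values.

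miR-146a-5p fell on days 3 and 21. At day 3 it had -4.10, -4.32, -3.73 and -4.10 in TSN samples, against -3.0, -3.44, -3.44 and -3.67 in control samples. At day 9 it had -3.75, -3.58, -3.94 and -3.26 in TSN samples, against -3.33, -3.17, -3.24 and -3.03 in control samples. On day 21 its values were -3.70, -3.73, -4.35 and -4.30 in TSN samples, against -3.15, -2.87, -3.65 and -2.86 in control samples. The groups did not overlap on days 3 and 21, by a narrow margin each time, and overlapped at day 9. The change was -0.68 at day 3 (adjusted p = 0.00847), -0.44 at day 9 (adjusted p = 0.063) and -0.89 at day 21 (adjusted p = 0.00128), each with an SE of 0.20. The call of day 3 held in 6 of 12 other ways of processing, with changes from -1.08 (quantile normalization) to -0.0087 (no scaling), and that of day 21 in 8 of 12, with changes from -0.89 to -0.19 (normexp). At day 9 the change turned in 4 of 12, up to 0.69 with no scaling, and it passed without TSN replicate 4 (-0.57, adjusted p = 0.0263).

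The comparison of lymphoid with myeloid members gave no direction common to the 3 days. The difference miR-150-5p minus miR-223-3p averaged -6.28 ± 0.11 in TSN samples and -4.93 ± 0.39 in control samples at day 3 (SD, n = 4 each), a change of -1.35 with no overlap (exact permutation p = 0.0286, adjusted p = 0.0571). At day 9 it averaged -5.72 ± 0.19 in TSN samples and -5.0 ± 0.60 in control samples (change -0.72, exact permutation p = 0.0857, adjusted p = 0.114), and this difference turned to 1.23 with quantile normalization and 0.62 with the authors' values. At day 21 it averaged -5.44 ± 0.38 in TSN samples and -5.66 ± 0.29 in control samples (change 0.22, exact permutation p = 0.486). The other lymphoid member had the same signs on days 3 and 21 and the opposite sign at day 9. miR-342-3p minus miR-223-3p changed by -0.41 at day 3 (exact permutation p = 0.143), 0.46 at day 9 (exact permutation p = 0.171) and 0.55 at day 21 (exact permutation p = 0.0571, adjusted p = 0.098).

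The difference between the 2 lymphoid members was tested in the same way, and it passed on no day after adjustment. miR-150-5p minus miR-342-3p averaged -2.10 ± 0.10 in TSN samples and -1.16 ± 0.12 in control samples at day 3 (SD, n = 4 each), a change of -0.94, and it changed by -1.17 at day 9. Neither day showed an overlap between the groups (exact permutation p = 0.0286 and adjusted p = 0.0571 on each day). At day 21 it changed by -0.33 (exact permutation p = 0.0857, adjusted p = 0.114) and the groups overlapped. At day 3 the change came to 0.03 with quantile normalization and to 0.11 with the authors' values, while it was -2.86 with the total gene signal. miR-150-5p was not well above background on 6 of the 12 control arrays, and the part of this in the spread of these values was not tested.

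Set in order of their means, the control groups of days 21 and 9 held the 2 highest places for 5 of the 6 members, and the exception was miR-142a-5p, which was highest in TSN day 3 (-2.60), then control day 21 (-2.82), TSN day 9 (-2.91), TSN day 21 (-2.97), control day 9 (-3.14) and control day 3 (-3.68). Neighbours in that order overlapped, apart from control days 9 and 3. For miR-223-3p the order was control day 21 (1.44), control day 9 (0.84), TSN day 9 (0.37), TSN day 21 (0.34), TSN day 3 (0.33) and control day 3 (0.30), and only the first 2 did not overlap. For miR-142a-3p it was control day 21 (0.66), control day 9 (0.47), TSN day 3 (0.20), TSN day 21 (-0.28), control day 3 (-0.31) and TSN day 9 (-1.07), with each neighbour overlapping the next. miR-150-5p and miR-146a-5p each had all 3 control groups above all 3 TSN groups, and each neighbour overlapped the next. miR-342-3p had its highest mean at control day 21 (-3.38) and its lowest at TSN day 21 (-3.92), a span smaller than that of any other member.

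Between days, 2 members had a lower TSN effect at day 9 than at day 3 (15.1% of all tested were called lower and 3.83% higher), none was called between days 21 and 9 (11.7% lower, 23% higher), and 3 had a lower effect at day 21 than at day 3 (9.01% lower, 4.05% higher). Within the TSN arm, miR-142a-3p fell at day 9 against day 3 (-1.27, SE 0.29, adjusted p = 0.00197), where 25% of all tested were called lower and 9.91% higher. It rose at day 21 against day 9 (0.79, SE 0.29, adjusted p = 0.032), where 30.6% were called higher and 12.8% lower. This within-slide call held in 4 of 12 other ways of processing and was lost without TSN day 9 replicate 2 (0.80) or 4 (0.61) or TSN day 21 replicate 2 (0.65) or 4 (0.70). In the TSN arm no member was called at day 21 against day 3 (4.5% higher, 2.48% lower). Within the control arm, miR-142a-5p and miR-223-3p were higher at day 9 than at day 3 (9.46% called higher, 4.28% lower), none was called between days 21 and 9 (0.225% in each direction), and both miR-142a arms and miR-223-3p were higher at day 21 than at day 3 (16.9% higher, 5.86% lower). The control day 9 against day 3 call of miR-142a-5p (0.53, adjusted p = 0.0465) held in 0 of 12 other ways of processing, and it was lost in 7 of 8 fits that left out 1 array (all but control day 3 replicate 2), which gave 0.46 to 0.57. The control day 21 against day 3 call of miR-142a-3p (0.97, adjusted p = 0.0205) was lost without control day 3 replicate 1 (0.84) or control day 21 replicate 4 (0.64).

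Only TSN day 21 against day 9 and control day 9 against day 3 lie within 1 slide, and 8 differences were tested there, added after the data were seen. On the TSN slide, miR-142a-3p minus miR-142a-5p was 2.70 at day 21 and 1.84 at day 9, and miR-150-5p minus miR-342-3p was -1.18 at day 21 and -1.89 at day 9. miR-342-3p minus miR-223-3p was -4.26 at day 21 and -3.82 at day 9. The groups did not overlap in any of these 3 (exact permutation p = 0.0286 and adjusted p = 0.0571 each). On the control slide, miR-150-5p minus miR-342-3p was -0.72 at day 9 and -1.16 at day 3 (exact permutation p = 0.0286, adjusted p = 0.0571), and miR-142a-3p minus miR-142a-5p was 3.61 at day 9 and 3.36 at day 3 (exact permutation p = 0.143). On the 1 slide that held both TSN days, miR-142a-3p minus miR-142a-5p was larger at day 21 than at day 9 by 0.86.

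The other arms of the members' hairpins were dim. miR-223-5p, miR-146a-3p and miR-342-5p were well above background on no array. miR-150-3p was well above background on 2, 2 and 4 of 4 TSN arrays of days 3, 9 and 21 and on no control array, and its change passed on no day (0.29, 0.00 and -0.28).

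Of 14 other leukocyte miRNAs listed for comparison, 9 were tested. miR-155-5p, an activation-induced miRNA of lymphocytes and macrophages, was well above background on no array, and neither were miR-146b-5p, miR-503-5p and miR-182-5p, while miR-132-3p was so on 3 arrays. At day 3, 3 of the 9 rose and 1 fell. Of those that rose, miR-181a-5p and miR-322-5p entered the test only through TSN groups, since no control group had them well above background on all 4 arrays. At day 9, 1 rose and 2 fell, and at day 21 none rose and 3 fell. Over all tested, 29.1%, 27.9% and 23.2% were called higher and 18.2%, 34.2% and 21.6% lower on these days. The median change of the 9 was 0.13, -0.01 and -0.13 on the 3 days, beside 0.10, -0.04 and 0.01 over all tested.

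Within that list miR-27a-3p fell on all 3 days, with changes of -0.59 at day 3 (adjusted p = 0.00689), -1.05 at day 9 (adjusted p = 2.96e-05) and -1.49 at day 21 (adjusted p = 8.98e-07). miR-29a-3p rose by 0.91 at day 3 (adjusted p = 3.09e-05) and 0.74 at day 9 (adjusted p = 0.000231) and had a change of -0.01 at day 21 (adjusted p = 0.978). miR-322-5p rose by 0.95 at day 3 (adjusted p = 0.00025), where 2 of the 4 control arrays had it well above background. miR-181d-5p fell by 1.12 at day 9 (adjusted p = 1.27e-05) and 0.73 at day 21 (adjusted p = 0.0015), where 1 and 3 of the 4 control arrays had it well above background. miR-24-3p fell by 0.56 at day 21 (adjusted p = 0.016). miR-181a-5p was called at day 3 with a change of 0.13 (adjusted p = 0.0467), its control arrays all lying at the floor. miR-181b-5p, miR-181c-5p and miR-125a-5p passed on no day and were well above background on no control array.

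Markers of other blood sources were compared between the same groups. Of all tested, 29.1%, 27.9% and 23.2% were called higher and 18.2%, 34.2% and 21.6% lower on days 3, 9 and 21. Of 6 red cell miRNAs, 1 rose and 3 fell at day 3, 3 rose and 2 fell at day 9, and none rose and 3 fell at day 21. Their summed scaled signal lay between 28.3 and 48.0 in TSN samples and between 33.3 and 57.0 in control samples at day 3, between 75 and 94.6 in TSN samples and between 33.2 and 65.9 in control samples at day 9, and between 41.6 and 62.9 in TSN samples and between 53.7 and 95.1 in control samples at day 21. Such a sum adds unlike probes and mainly follows the brightest. In TSN samples of day 3 that was miR-451a (mean 5.03 in log2, against 1.24 for the next, miR-486a-5p). In the platelet list below it was miR-21a-5p (2.95, against -1.57 for the next, miR-26a-5p). The red cell miR-451a rose at day 9 (0.81, adjusted p = 0.00555) and had changes of -0.07 and -0.16 on days 3 and 21. Of 6 platelet miRNAs, 2 rose and 1 fell at day 3, and none rose and 3 fell on each of days 9 and 21. Their sum lay between 6.81 and 10.8 in TSN samples and between 5.04 and 7.63 in control samples at day 3, between 7.53 and 9.15 in TSN samples and between 9.50 and 13.2 in control samples at day 9, and between 6.07 and 8.56 in TSN samples and between 7.31 and 14.1 in control samples at day 21.

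Among the platelet-list miRNAs, miR-126a-3p, which endothelium also makes, fell by 0.81 at day 9 (adjusted p = 0.000791) and 0.53 at day 21 (adjusted p = 0.0252). miR-126a-5p was among those that fell on each day, and it was the only one at day 3. It was well above background on 0, 0 and 2 of 4 control arrays of days 3, 9 and 21, and entered the test only through TSN groups. Of 4 hepatocyte miRNAs 3 were tested, and 1, 2 and 1 of them rose on days 3, 9 and 21 (29.1%, 27.9% and 23.2% of all tested), with none falling (18.2%, 34.2% and 21.6%). On days 3 and 21 only miR-148a-3p rose (1.47 and 0.69), and it was well above background on 2, 2 and 3 of 4 control arrays. It thus entered the test only through TSN groups, where it was high. At day 9 it rose by 1.59 and miR-192-5p by 1.41. Among TSN samples of day 9 the SD was 1.60 for miR-192-5p and 2.27 for miR-122-5p. The defining hepatocyte miRNA, miR-122-5p, was well above background on all 12 TSN arrays and on 3, 2 and 4 of 4 control arrays, and its change was 0.00, 1.75 and -0.50 on the 3 days (adjusted p = 1, 0.0653 and 0.696). Their sum lay between 0.48 and 1.01 in TSN samples and between 0.31 and 0.49 in control samples at day 3, between 0.51 and 4.89 in TSN samples and between 0.29 and 0.45 in control samples at day 9, and between 0.44 and 0.61 in TSN samples and between 0.40 and 0.92 in control samples at day 21. The part of these other sources in the members' changes was not tested.

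Across the 24 arrays each member was set against the 150 miRNAs that were well above background on every array and are not members. These correlations describe arrays that share slides, days and arm, and they carry no test. miR-223-3p was most like miR-221-3p (r = 0.88), miR-24-3p (r = 0.84) and miR-27a-3p (r = 0.83), and these held within groups at 0.85, 0.83 and 0.81. miR-142a-5p was most like miR-26a-5p (r = 0.85), miR-29b-3p (r = 0.85) and miR-26b-5p (r = 0.84), with 0.90, 0.86 and 0.86 within groups. The other arm had other partners: miR-142a-3p was most like miR-144-5p (r = 0.80), let-7f-5p (r = 0.78) and miR-709 (r = 0.75), with 0.90, 0.93 and 0.53 within groups.

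miR-146a-5p was most like miR-19a-3p (r = 0.88), miR-19b-3p (r = 0.87) and miR-22-3p (r = 0.86), with 0.68, 0.70 and 0.60 within groups. miR-150-5p was most like miR-30d-5p (r = 0.84), miR-222-3p (r = 0.82) and miR-140-5p (r = 0.78), and within groups these were only 0.36, 0.35 and 0.40. miR-342-3p had the weakest matches, with miR-215-5p (r = 0.73), miR-140-3p (r = 0.63) and miR-19a-3p (r = 0.60). Among the members themselves, miR-150-5p, miR-342-3p and miR-146a-5p went together within groups (r = 0.86 for miR-150-5p with miR-342-3p, 0.76 for miR-150-5p with miR-146a-5p and 0.79 for miR-342-3p with miR-146a-5p).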

How the data were processed

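Kits served to extract the RNA, which was labelled with Cy3, per the labels' protocols. Intensity values were deposited for each array. They had their background removed by Feature Extraction 10.7.1.1 without any scaling between arrays, per the file headers. The authors' deposited processed values are taken as log2. Their scaling and centring are not given in the sources used here. They correlated with the scaled intensities at r of 0.955 to 0.982, and their medians were 4.37 to 4.40.

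Control and outlier spots were left out and the spots of a probe (median 15) averaged over 4415 probes. Signals were scaled to the array's 75th percentile, taken over the 261 probes that all 24 arrays measured well above background (in over a 0.5 share of spots), floored at 0.0135 and put on the log2 scale. The brighter probe stood for a miRNA. No spot was saturated. Tests covered the 444 miRNAs with all 4 arrays of some group well above background, in 1 limma fit (limma 3.58.1, R 4.3.3, data.table in version 1.17.8) of 6 groups and 12 two-sided comparisons with Benjamini-Hochberg adjustment, checked on simulated data. The number of arrays limits the precision. Differences within an array were tested by exact permutation over 70 allocations. The named miRNAs were all 6 members, their other hairpin arms, seed-sharers, the listed markers and the 3 miRNAs most alike.

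The members and lists were chosen with earlier results of these data known. Alternatives were scaling over all probes, by 4 spike-in probes, by quantiles or none, the authors' values, normexp (offset 50), total gene signal, the mean of probes, the floor divided by 2, no filter, a replicate block, and each array left out. The dimmer probe (not for miR-150-5p) and centring on the median miRNA, used wherever an alternative moved that median by over 0.1, were added after seeing the data. Replicate numbers are slide columns. Over the 444 tested miRNAs, same-numbered TSN and control arrays of day 9 deviated together in 4 of 4 pairs (r of 0.20 to 0.35), and over the 152 measured on all arrays in 2 of 4. No other comparison had all 4 pairs over 0.1.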

Additional observations from a re-analysis of the deposited data

Results flagged for a closer look

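Among 60 groups of 4 (6 members and 4 within-array differences in 6 groups), 2 held a sample apart from its group, where chance gives about 1 in 20. In TSN day 3, replicate 3 had miR-150-5p at -5.47, with the other samples from -6.13 to -6.05. In TSN day 9, replicate 4 had miR-150-5p at -4.94, with the others from -5.55 to -5.44.

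The effect of TSN differed between days, by the interaction term of the limma fit, for miR-142a-3p (-2.05 for day 9 minus day 3 and -1.45 for day 21 minus day 3), for miR-142a-5p (-0.84 and -1.23) and for miR-223-3p (-1.13 for day 21 minus day 3). TSN day 3 lay on another slide than TSN days 9 and 21, and control day 21 on another than control days 3 and 9, so day and slide cannot be told apart in these values.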

How the results depend on the processing

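Of 213 changes of members (TSN against control) under other ways of processing, 138 kept direction and side of the threshold, 37 lost the call, 10 gained one and 28 changed sign. With each array left out in turn, 127 of 144 kept both, 8 lost the call, 3 gained one and 6 changed sign. The 36 differences between days not given in the text changed sign in 48 of 426 other ways of processing and in 22 of 368 fits without 1 array. The causes were not tested. Counts and members' changes are relative to the median miRNA wherever a setting moved it by over 0.1, as no scaling (2.19, 2.41 and 2.06 on days 3, 9 and 21) and normexp (-1.56, -2.08 and -1.37) did. Without that centring, miRNAs called higher and lower at days 3, 9 and 21 were 384 and 3, 388 and 6, 411 and 1 with no scaling, with all 6 members higher on each day. They were 366 and 12, 367 and 14, 357 and 3 with spike-in scaling, 188 and 34, 242 and 28, 92 and 44 with scaling over all probes, and 213 and 54, 231 and 76, 172 and 51 after quantile normalization. The authors' values gave 219 and 68, 258 and 77, 145 and 70, normexp 23 and 351, 30 and 375, 17 and 345, and total gene signal 134 and 59, 129 and 78, 116 and 45. Of the 6 members, spike-in scaling then called 5, 6 and 4 higher and none lower. Normexp called none higher and 4, 5 and 6 lower. Scaling over all probes called 3, 4 and 0 higher and 0, 0 and 1 lower, and quantile normalization 1, 1 and 0 higher and 0, 2 and 2 lower. The authors' values gave 1, 1 and 0 higher and 0, 2 and 3 lower, and total gene signal 1, 1 and 0 higher and 0, 1 and 1 lower.

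Of all tested, 129 were called higher and 81 lower at day 3, 124 and 152 at day 9, and 103 and 96 at day 21. Called lower at day 3 became 137 with scaling over all probes, 129 with quantile normalization, 155 with no scaling, 140 with spike-in scaling and 16 with normexp. Called higher at day 3 became 83 with no scaling and 64 with total gene signal. Called lower at day 9 became 26 with normexp and 101 with total gene signal. At day 21, called higher became 42 with no scaling, 51 with spike-in scaling and 65 with total gene signal, and called lower 4 with normexp. With each array left out, the counts ran from 117 to 130 higher and 75 to 87 lower at day 3, 109 to 119 and 139 to 156 at day 9, and 87 to 99 and 75 to 98 at day 21.

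miR-223-3p turned at day 9 with scaling over all probes (0.16), no scaling (0.68), spike-in scaling (0.34) and normexp (1.82), at day 3 with quantile normalization (-0.43), the authors' values (-0.28), total gene signal (-0.30) and the floor divided by 2 (-0.17), and at day 21 with normexp (0.50). miR-150-5p turned at day 9 with quantile normalization (0.028), and miR-142a-3p turned with normexp at days 9 (0.74) and 21 (0.59). miR-342-3p turned at day 3 with no scaling (0.19) and normexp (0.036). Its day 9 change turned with scaling over all probes (0.62), quantile normalization (1.20), no scaling (0.95), spike-in scaling (0.80), the authors' values (0.041), normexp (0.50) and total gene signal (0.025). miR-146a-5p turned at day 9 with scaling over all probes (0.19), no scaling (0.69), spike-in scaling (0.37) and normexp (0.35), and miR-142a-5p at day 21 with no scaling (0.35), spike-in scaling (0.21) and normexp (0.40). Without 1 array, miR-223-3p at day 3 ran from -0.12 to 0.14, miR-342-3p at day 9 from -0.16 to 0.14 and miR-142a-5p at day 21 from -0.33 to 0.016.

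The miR-150-5p effect at day 21 minus day 9 turned with scaling over all probes (-0.34), quantile normalization (-0.73), no scaling (-0.13), spike-in scaling (-0.34), the authors' values (-0.080), normexp (-0.0046) and total gene signal (-0.45). At day 21 minus day 3 it turned with quantile normalization (-0.48) and the authors' values (-0.045), and at day 9 minus day 3 it ran from -0.053 to 0.29 without 1 array. Within the TSN arm, miR-223-3p turned at day 9 against day 3 with quantile normalization (-0.044) and the dimmer probe (-0.0059), at day 21 against day 9 with quantile normalization (0.076), the authors' values (0.046) and the dimmer probe (0.014), and at day 21 against day 3 with scaling over all probes (-0.030). Without 1 array these ran from -0.071 to 0.19, -0.14 to 0.061 and -0.10 to 0.17.

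For miR-150-5p minus miR-223-3p, day 3 became 0.15 with quantile normalization, -0.14 with the authors' values and -3.28 with total gene signal. Day 9 became 1.23 with quantile normalization, 0.62 with the authors' values, -1.43 with no scaling and -2.26 with normexp. Day 21 became 0.98 with quantile normalization, 1.05 with the authors' values, -0.19 with no scaling, -0.98 with normexp, -0.19 with total gene signal and 0.62 with the mean of probes. For miR-342-3p minus miR-223-3p, day 3 became 0.12 with quantile normalization and -1.62 with normexp. Day 9 became -1.32 with normexp, and quantile normalization moved it to 2.40. Day 21 became 1.27 with quantile normalization, 0.94 with the authors' values, -0.60 with normexp and -0.047 with total gene signal. For miR-150-5p minus miR-342-3p, day 3 became 0.030 with quantile normalization, 0.11 with the authors' values, -2.86 with total gene signal and -0.28 with the mean of probes, day 9 became -0.34 with the authors' values and -0.89 with total gene signal, and day 21 became -0.38 with normexp, 0.10 with the authors' values and 0.030 with the mean of probes. For miR-142a-3p minus miR-142a-5p, day 3 became -0.49 with no scaling, -0.40 with the authors' values and 1.03 with normexp, and days 9 and 21 became -0.13 and 0.19 with normexp. With each array left out, the differences of days 3, 9 and 21 ran from -1.49 to -1.24, -0.96 to -0.51 and 0.04 to 0.31 for miR-150-5p minus miR-223-3p, -0.57 to -0.25, 0.31 to 0.69 and 0.44 to 0.69 for miR-342-3p minus miR-223-3p, -0.99 to -0.90, -1.27 to -1.06 and -0.43 to -0.23 for miR-150-5p minus miR-342-3p, and -0.63 to -0.46, -1.84 to -1.70 and -0.86 to -0.62 for miR-142a-3p minus miR-142a-5p. An exact permutation p of 0.0286 was reached for the first pair at day 9 without control replicate 1 (-0.96), and for the second at day 9 without control replicate 3 (0.69) and at day 21 without control replicate 2 (0.69). It was lost for the arms of miR-142a at day 3 without TSN replicate 3 (-0.48).

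With the replicate number as a block (pairing arrays by slide column), 126 and 82, 120 and 149, and 99 and 91 miRNAs were called higher and lower at days 3, 9 and 21, and no call of a member in TSN against control changed. It ended the control day 9 against day 3 calls of miR-142a-5p (adjusted p = 0.0583) and miR-223-3p (adjusted p = 0.0623). The smallest exact p the pairing allows for a within-array difference is 0.125, so the differences that reached 0.0286 unpaired (miR-150-5p minus miR-223-3p, -1.35 at day 3; miR-150-5p minus miR-342-3p, -0.94 and -1.17 at days 3 and 9; miR-142a-3p minus miR-142a-5p, -0.56, -1.77 and -0.79 at days 3, 9 and 21) could not pass with it. Signal over background limits miR-150-5p and miR-342-3p most, and the number of arrays limits every test.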
